A study of Mus musculus with 16 samples.

Results

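Thalamus was set against cortex within 4 mice homozygous for the Pdgfb retention allele (ret/ret). The comparison used 8 of the 16 libraries of the series, 1 from each region of each animal, paired by animal and run over all genes. Of the 21804 genes in the count table, 14715 had enough counts to be tested. All mice were C57BL/6 and 4 months old. The control group was 4 ret/wt mice, which carry 1 retention allele beside a normal allele, and their thalamus and cortex are given here only beside the ret/ret values. The labels describe the thalamus tissue of ret/ret mice as calcifications that were located under a stereomicroscope by their own fluorescence and cut out, and ret/ret cortex as tissue that is not prone to calcify. The ret/wt mice gave pieces from matching regions and had no calcifications. Within ret/ret animals, region, calcification and the way of dissection therefore cannot be told apart. Each library came from a tissue piece that holds many cell types, so fewer cells of a type and less RNA per cell cannot be told apart either. Pdgfb itself was not analysed here, so the genotype was not checked on the altered gene.

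PDGF-B is a growth factor that endothelial cells release to recruit pericytes, the contractile cells that wrap capillaries. The retention allele lacks the stretch that holds PDGF-B close to the vessel wall, and mice with it have few pericytes and develop calcified vessels in deep brain regions. Thalamus and cortex also differ before any disease: thalamic relay neurons arise from the diencephalon and load glutamate with Slc17a6, most cortical projection neurons arise from the telencephalon and use Slc17a7, and the thalamus is crossed by many myelinated fibres. Microglia, the resident macrophages of the brain, gather at such calcifications, and Trem2 is a receptor on their surface. Per its title, the study concerned microglia and Trem2 in vessel calcification, and the contrast of regions sets tissue that calcifies against tissue that does not.

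The 8 ret/ret libraries held 14093145 to 29135064 counts. A floor of 3 counts stood at 0.11 to 0.218 counts per 1000000 (CPM), the scale of all levels below. Mitochondrial transcripts took 5.87% to 12.1% of counts in thalamus and 4.29% to 7.04% in cortex. The first principal component of all 16 libraries (33.9% of variance) separated the regions in both genotypes, but ret/ret cortex of animal 2 lay at -17.62, nearer to thalamus than the other ret/ret cortex libraries (-71.96 to -44.82). That library held RNA of another brain region: a list of cerebellar granule and Purkinje cell genes summed to 9710 CPM, against 771 to 1330 CPM in the other 3 cortex libraries. Gabra6, a GABA receptor subunit of cerebellar granule cells, was at 397 CPM there and at or below 0.391 CPM in the other ret/ret cortex libraries. Thalamus of animal 4 stood apart in genes of midbrain dopamine neurons, which summed to 1380 CPM against 348 to 501 CPM in the other 3 thalamus libraries. Thalamus of animal 1 was highest in meningeal fibroblast genes (2500 CPM against 518 to 1140 CPM). The Y-linked gene Ddx3y was at 65.5 and 68.7 CPM in both libraries of animal 2 and at or below 0.145 CPM in those of the other 3 animals. A ret/wt cortex library also held cerebellar genes: animal 3 stood at 182 CPM for Gabra6 and at 5140 CPM for the cerebellar list, against 939 to 1650 CPM in the other ret/wt cortex libraries. Ddx3y was at 55.2 CPM in thalamus and 68.3 CPM in cortex of that animal and at or below 0.219 CPM in the other ret/wt libraries. Without ret/wt animal 3, 736 genes were called in ret/wt. A fit without ret/ret animal 2 also leaves out the only ret/ret animal with Ddx3y above 0.145 CPM. Cerebellar RNA and Ddx3y cannot be told apart there. Results below are given with all 4 animals and then with each animal left out.

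**Figure D1:**
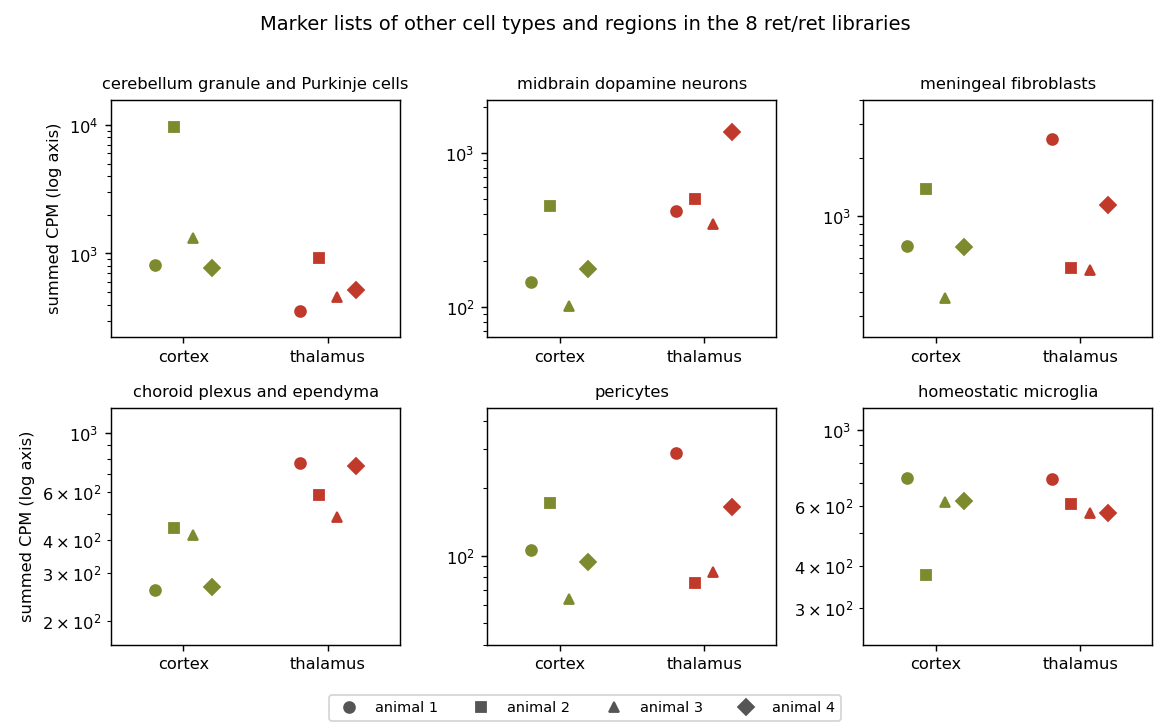
Summed CPM (log axis) of 6 marker lists in the ret/ret cortex and thalamus libraries, with 1 symbol per animal. Cortex of animal 2 reaches 9710 CPM for cerebellar genes, thalamus of animal 4 reaches 1380 CPM for dopamine neuron genes, and thalamus of animal 1 reaches 2500 CPM for meningeal genes.

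In ret/ret animals, 1177 of 14715 genes (8.0%) differed between thalamus and cortex at a Benjamini-Hochberg adjusted p-value under 0.05 in edgeR's paired quasi-likelihood test. Of these, 501 (3.40%) were higher in thalamus and 676 (4.59%) were lower. The median change of the genes that rose was 1.33 on the log2 scale, with 52 genes past a log2 change of 3, and that of the genes that fell was -1.42, with 89 genes past it. All 1177 moved the same way in each of the 4 animals, and in 1023 of them the 4 thalamus values did not overlap the 4 cortex values. Over all tested genes, 2568 (17.5%) had no overlap. The median log2 fold change of all tested genes was -0.01. With upper-quartile scaling that median was 0.11 and the split changed to 670 higher and 543 lower. The count rested on the animals used: it was 3341 without animal 2 (1516 higher and 1825 lower, with 1175 of the 1177 among them), 180 without animal 1, 70 without animal 3 and 34 without animal 4. Those fits tested 14737, 14713, 14818 and 14806 genes. Without animals 1, 3 and 4, 73, 17 and 7 genes were higher and 107, 53 and 27 were lower. The shares of 3.40% and 4.59% given below belong to the fit with all 4 animals. They are not the background of counts with an animal left out. P-values measure the spread between 4 animals of 1 group.

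The same contrast in ret/wt mice, which share no sample with the ret/ret contrast, called 1487 of 14442 genes (10.3%), 619 higher (4.29%) and 868 lower (6.01%). Of the genes tested in both genotypes, 742 were called in both, which was 64.1% of the ret/ret calls and 50.3% of the ret/wt calls. All 742 had the same sign. Of the 1158 ret/ret calls tested in both, 1154 had the same sign in ret/wt, against 80.6% of all genes. Across 14295 genes the correlation of the 2 sets of log2 fold changes was 0.859, as a description over genes, which are not independent. Most of what set ret/ret thalamus apart from ret/ret cortex thus had the same direction in animals without calcification. The 4 exceptions in sign were Tomm40l, Acss1 and Lrrc23, higher in ret/ret thalamus, and Naaladl2, lower there, whose ret/wt changes lay between -0.32 and 0.04.

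**Figure D2:**
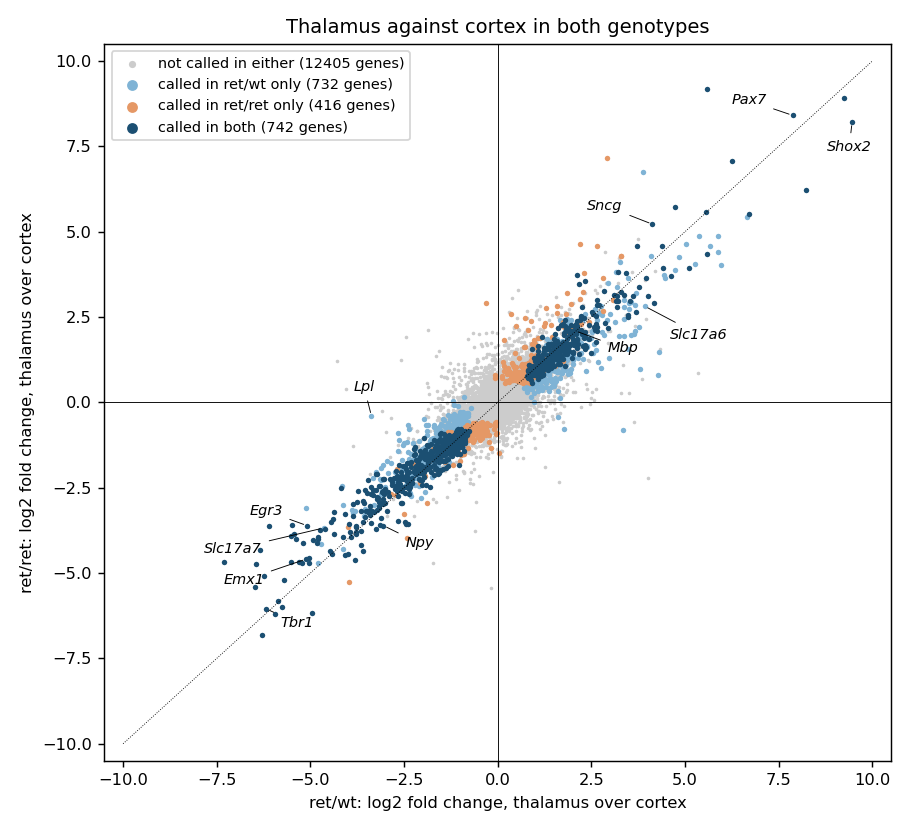
Log2 fold change of thalamus over cortex for 14295 genes in ret/ret (vertical axis) and ret/wt (horizontal axis), coloured by the comparison in which a gene was called at an adjusted p under 0.05. The 742 genes called in both lie in the same direction, while Lpl lies at -3.37 in ret/wt and -0.40 in ret/ret.

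The 15 genes with the largest rises included transcription factors of the diencephalon and midbrain and genes of aminergic neurons. Shox2, a homeobox factor of thalamic neurons, stood at 27.7, 81.8, 47.2 and 5.43 CPM in the thalamus of animals 1 to 4 and at 0.11 to 0.145 CPM in cortex. The log2 fold change was 8.21 ± 0.54 (SE, adjusted p = 0.00486), and animal 4 was the low thalamus library. Genes named for the largest changes were taken only from calls whose groups did not overlap. Some of them, such as Shox2, Pax7, Foxb1 and Gbx2, held at most 5 counts in any cortex library. The filter on low counts kept these through their thalamus values, so they could only rise, and the size of their rise is uncertain. Pax7, a paired box factor of the dorsal midbrain, was at 17.8, 0.536, 24.4 and 15.8 CPM in thalamus and at 0 to 0.073 CPM in cortex, where the 4 libraries held 3 counts in all. Its ratio of summed levels was 382 (95% exact binomial interval 130 to 1850, counting error only), and animal 2 was the low library. Foxb1, a forkhead factor of thalamus and mammillary body, held 375 counts in thalamus and 2 in cortex (ratio 174, interval 47.9 to 1450). Gbx2, the homeobox factor of developing thalamic relay neurons, was the reverse of Pax7 among animals: 3.41, 22.8, 1.45 and 0.906 CPM in thalamus, highest in animal 2, and 0, 0.218, 0 and 0 CPM in cortex (log2 7.03 ± 0.61, adjusted p = 0.00746). Gata3, a zinc finger factor of midbrain and brainstem inhibitory neurons, was even across animals, at 8.02 to 13.2 CPM in thalamus and at most 0.219 CPM in cortex (log2 6.22 ± 0.52).

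The other genes with the largest rises were Slc18a2, Sfrp5, Dgkk, Slc10a4, Sncg, Cst7, Lhx9, Irs4, Drd2 and Dlk1. Sncg, which codes for gamma-synuclein, was at 31.1, 16, 42 and 65.5 CPM in thalamus and at 0.621 to 1.22 CPM in cortex (log2 5.22 ± 0.50, adjusted p = 0.00924). Sfrp5, a secreted Wnt antagonist, was at 7.8 to 26.2 CPM in thalamus against 0.11 to 1.09 CPM in cortex (log2 5.71 ± 0.56). Dgkk, a diacylglycerol kinase, rose by log2 5.57 and Dlk1, a membrane relative of Notch ligands, by log2 4.29. Irs4, an adaptor of insulin signalling, rose by log2 4.58. Slc10a4, a carrier-like protein of cholinergic and monoaminergic synaptic vesicles, ranged from 1.12 to 30.7 CPM in thalamus and peaked in animal 4 (log2 5.34 ± 1.18, adjusted p = 0.0486). Without animal 4, the adjusted p-values of the 15 largest rises lay at or above 0.0472.

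The 15 largest falls included transcription factors of telencephalic excitatory neurons. Tbr1, the T-box factor of deep-layer cortical neurons, was at 0.798, 1.52, 0.97 and 2.36 CPM in thalamus and at 124, 39.3, 135 and 96.2 CPM in cortex (log2 -6.05 ± 0.54, adjusted p = 0.00834). Cortex of animal 2 was the lowest cortex library, yet above every thalamus library. Fezf2, which specifies subcortical projection neurons, fell by 5.41 on the log2 scale. Emx1, a homeobox factor of the dorsal telencephalon, fell by 4.59.

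Genes of dendrites and spines were also among the largest falls. Itpka, a kinase of inositol trisphosphate that bundles actin in spines, was at 9.13, 2.28, 5.63 and 7.25 CPM in thalamus and at 148, 110, 150 and 174 CPM in cortex (log2 -4.71 ± 0.29, adjusted p = 0.00458). Rin1, a Ras effector of forebrain neurons, was at 0.849 to 2.88 CPM in thalamus and ranged from 9.07 CPM (animal 2) to 95 CPM in cortex (log2 -4.71 ± 0.38). Gda, the guanine deaminase cypin, was at 5.19 to 37.1 CPM in thalamus and 144 to 451 CPM in cortex (log2 -4.48 ± 0.28). Kcnv1, a modifier subunit of voltage-gated potassium channels, fell by 4.56. The others were Ankrd63 (log2 -6.16), Igfn1 (log2 -5.81), Ovol2 (log2 -4.73), Tbata (log2 -4.67), Dtl (log2 -4.45) and the predicted gene Gm11549 (log2 -6.81). Tbata held at most 7 counts in any thalamus library and was kept through its cortex values, so it could only fall.

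Of 21 tested thalamic transcription factors, 6 rose, 1 fell and 14 did not pass, against 3.40% higher and 4.59% lower over all genes, with a median log2 fold change of 0.97. In ret/wt, 9 rose and 2 fell, with a median of 1.66. Tcf7l2, the Wnt effector that keeps thalamic neuron identity, was at 116, 219, 67.5 and 18.3 CPM in thalamus and at 3.78 to 7.37 CPM in cortex (log2 3.95 ± 0.58, adjusted p = 0.0198). Lhx9, a LIM homeobox factor of thalamic progenitors and neurons, rose by log2 4.58, Zfhx3 by log2 2.96 and Prox1 by log2 0.97. Mef2c, an activity-regulated factor also strong in cortex, was the member that fell (log2 -3.93). Rora, a nuclear receptor of relay neurons and also of cerebellar Purkinje cells, did not pass. It stood at 77.3, 627, 104 and 78.4 CPM in thalamus and at 85.2, 372, 149 and 94.8 CPM in cortex, highest in both libraries of animal 2 (log2 -0.04, adjusted p = 0.925, with the sign turning to 0.08 under upper-quartile scaling). Lef1, a partner of Tcf7l2 in the same pathway, was at 18, 101, 23.4 and 12.9 CPM in thalamus, again highest in animal 2, and at 3.14 to 12.5 CPM in cortex. Without animal 2, 10 members rose and 2 fell. Without animals 1, 3 and 4, 4, 2 and 2 rose and none fell.

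The thalamus pieces also differed among themselves in genes of neighbouring brain parts. Pou4f1, a POU factor of habenula and midbrain, was at 16.1, 0.402, 26.7 and 10.7 CPM in thalamus of animals 1 to 4, and Pou4f2 was at 6.96, 0.0894, 16.6 and 4.28 CPM. Both were low in animal 2, as was Pax7, whereas Gbx2, Rora and Lef1 were highest in animal 2. The filter on low counts kept neither Pou4 gene in the 4-animal test. Irx, Lhx and Pou4 homeobox genes mark territories of diencephalon, midbrain and hindbrain. Of 10 tested, 2 rose (Lhx9 and Irx6) and 1 fell (Lhx6), against 3.40% and 4.59% of all genes. Without animal 2, 10 of 13 tested rose and 2 fell, and without animals 1, 3 or 4, none rose. The 13 include genes that the filter did not keep with all 4 animals, so these counts are not on the same genes. A gene kept through its thalamus values alone could only rise. Lhx1, a factor of midbrain and of Purkinje cells, was at 2.64 to 14.3 CPM in thalamus and, in cortex, at 0 to 0.0726 CPM except for 42.8 CPM in animal 2, the cortex library with cerebellar genes. The part of neighbouring tissue in the results was not tested.

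**Figure D3:**
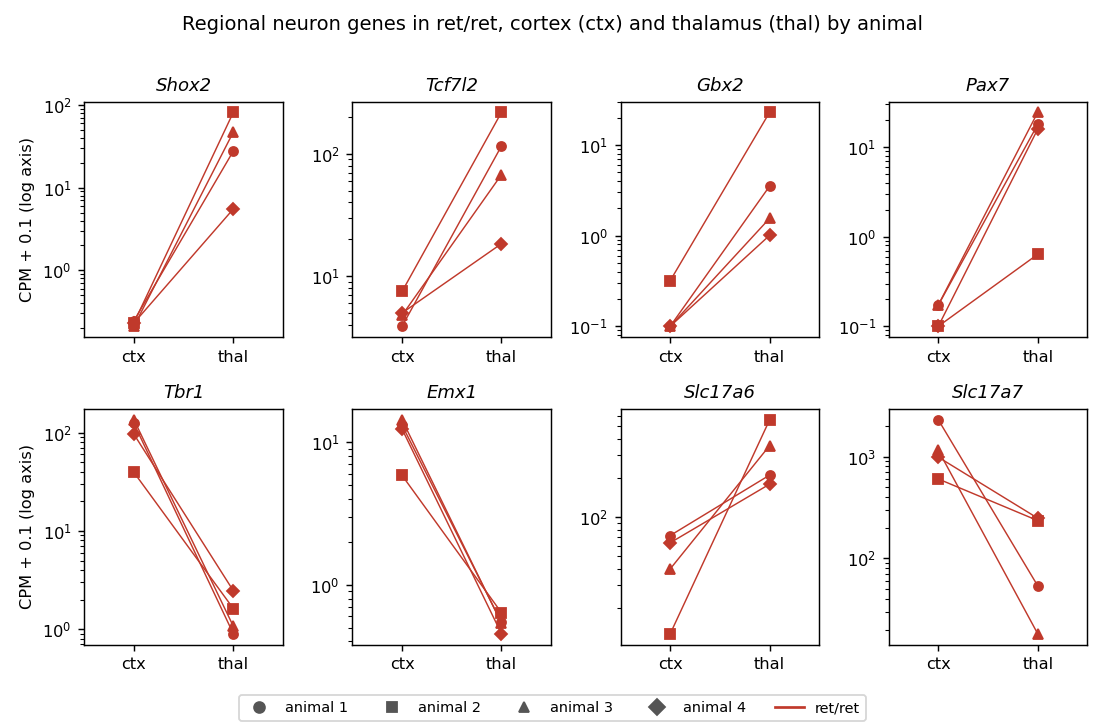
CPM plus 0.1 (log axis) of 8 regional neuron genes in ret/ret cortex and thalamus, with a line joining the 2 libraries of each animal. Gbx2 is highest in thalamus of animal 2, where Pax7 is lowest, and the lines of Slc17a6 all rise and those of Slc17a7 all fall.

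Of 27 tested transcription factors of cortical projection neurons, none rose, 17 fell and 10 did not pass, against 4.59% of all genes lower, with a median of -1.94. In ret/wt, 1 rose and 18 fell, with a median of -2.34. Neurod6, a basic helix-loop-helix factor of cortical pyramidal neurons, was at 1.68, 1.25, 2.38 and 12.7 CPM in thalamus and at 19.5, 26.4, 83 and 110 CPM in cortex (log2 -4.01 ± 0.38, adjusted p = 0.00923). Thalamus of animal 4 was its highest thalamus library, yet still below every cortex library. Bcl11b, which marks corticospinal neurons, fell by 2.23, Bcl11a by 1.94 and Satb1 by 1.77 on the log2 scale. The upper-layer factors Cux1 and Cux2 did not pass (log2 0.01 and -0.65). Neurod1, also a factor of cerebellar granule cells, was at 158 CPM in cortex of animal 2 and at 6.97 to 7.77 CPM in the other cortex libraries, against 1.15 to 3.67 CPM in thalamus (log2 -3.08, adjusted p = 0.0485). Without animal 2, 20 of the 27 fell, and without animals 1, 3 and 4, 8, 6 and 1 did.

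Among 24 markers of cortical layers and projection classes, none rose and 8 fell, against 4.59% of all genes lower. Crym, a thyroid hormone binding protein of deep layers, was at 1.56 to 3.46 CPM in thalamus and at 69.2, 14.7, 30.3 and 102 CPM in cortex (log2 -4.01 ± 0.37, adjusted p = 0.00901). Cplx3, a complexin of the subplate layer, fell by 3.55, Lamp5, a membrane protein of upper layers and of a class of interneurons, by 2.83, and Tmem215 by 2.75 on the log2 scale. The fits without animals 1, 3 or 4 each called 1 of the 24 lower, and that without animal 2 called 9 lower and 2 higher.

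The glutamate transporters that separate the regions in ret/wt did not pass in ret/ret. Slc17a6, the vesicular transporter of thalamic relay neurons, was at 210, 558, 354 and 179 CPM in thalamus and at 72.1, 12.6, 39.9 and 63.4 CPM in cortex. The groups did not overlap, as in 17.5% of all genes, but the log2 fold change of 2.82 ± 0.74 had an adjusted p of 0.0701. Slc17a7, the vesicular transporter of cortical projection neurons, was at 53.7, 235, 18.1 and 248 CPM in thalamus and at 2290, 602, 1150 and 985 CPM in cortex (log2 -3.68 ± 1.02, adjusted p = 0.0793). Without animal 2, both passed (adjusted p = 0.0166 and 0.0245). In ret/wt their log2 fold changes were 3.92 and -4.65, both called, and neither differed between genotypes beyond the error (unadjusted p = 0.191 and 0.523 in edgeR's test of the difference, adjusted p = 1.0 for both).

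Of 17 tested genes of transmitter packaging, uptake and synthesis, 3 rose and none fell, against 3.40% of all genes higher. Slc18a2, the vesicular monoamine transporter, was at 2.39, 19.8, 3.93 and 140 CPM in thalamus and at 0.0365 to 0.393 CPM in cortex (log2 7.16 ± 0.78, adjusted p = 0.011). Ddc, the decarboxylase that makes dopamine and serotonin, was at 12.6, 32, 18.8 and 142 CPM in thalamus and at 2.08 to 3.19 CPM in cortex (log2 3.57 ± 0.68). Both peaked in animal 4, the thalamus library with the highest sum of dopamine neuron genes. Slc5a7, the choline transporter of cholinergic terminals, rose by log2 2.18. Slc6a3, the dopamine transporter, was at 5.76, 63, 5.53 and 234 CPM in thalamus and at most 1.74 CPM in cortex, without passing (log2 6.75, adjusted p = 0.0647). Drd2, the dopamine receptor that also acts as an autoreceptor, was more even, at 14.9, 15.9, 20.9 and 29.5 CPM in thalamus and 0.402 to 2.11 CPM in cortex (log2 4.57 ± 0.54, adjusted p = 0.013). The genes of inhibitory transmission Gad1, Gad2 and Slc32a1 did not pass (log2 -0.53, 0.34 and 0.28). Of the transmitter list, 8 rose and 1 fell without animal 2, and without animals 1, 3 and 4, 2, 0 and 1 rose.

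Of 24 tested genes of cortical interneurons, 8 fell and 1 rose, against 4.59% and 3.40% of all genes, with a median of -1.21 (ret/wt: 9 lower and 2 higher, median -0.94). Npy, the neuropeptide of a class of somatostatin interneurons, was at 10.2, 2.95, 4.9 and 3.27 CPM in thalamus and at 171, 27, 71.8 and 31.1 CPM in cortex (log2 -3.61 ± 0.22, adjusted p = 0.00458). Vip, the peptide of disinhibitory interneurons, was at 0.983 to 8.91 CPM in thalamus and at 13.3 to 79.8 CPM in cortex (log2 -3.76 ± 0.45). Lhx6, the homeobox factor of interneurons from the medial ganglionic eminence, fell by 3.91, Dlx2, a homeobox factor of the ganglionic eminences, by 5.25 and Cort, which codes for cortistatin, by 4.13 on the log2 scale. Dlx2 held at most 3 counts in any thalamus library, which is the floor, so the size of its fall is uncertain. Prox1 was the member that rose. Without animal 2, 12 fell and 2 rose, and without animals 1, 3 and 4, 2, 3 and 1 fell.

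Lists of other tissue and brain parts were counted too, against 3.40% of all genes higher and 4.59% lower. Of 15 meningeal fibroblast genes and 4 blood cell genes, none passed. Of 15 genes of choroid plexus and ependyma, Foxj1, the factor of motile cilia, rose (2.19 ± 0.47 on the log2 scale, adjusted p = 0.047), and the list's median was 1.71. Without animal 2, 3 meningeal and 4 choroid plexus genes rose, and without animals 1, 3 or 4, none did. Of 5 tested hypothalamic genes, 2 rose: Cartpt, a peptide precursor, was at 22.1, 16, 49.1 and 27.9 CPM in thalamus and at 1.66 to 4.45 CPM in cortex (log2 3.37 ± 0.23, adjusted p = 0.00547), and Pmch, which codes for melanin-concentrating hormone, was at 1.07 to 2.39 CPM against 0.073 to 0.363 CPM. Hcrt, Agrp, Oxt and Avp, which define other hypothalamic neurons, were at or below 0.134 CPM in every thalamus library. Of 11 tested dopamine neuron genes, 3 rose and 1 fell, and without animal 2, 8 rose and 1 fell. Without animals 1, 3 and 4, 3, 0 and 1 dopamine neuron genes rose. Of 11 tested cerebellar genes, 4 fell: Neurod1, Calb1, Itpr1 and Etv1, all of which cortical neurons express too. Without animal 2, 4 cerebellar genes rose and 4 fell, and without animals 1, 3 or 4, none had a call.

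Genes induced by neuronal activity were lower in thalamus. Of 28 tested immediate early genes, 16 fell, none rose and 12 did not pass, against 4.59% of all genes lower, and the median was -1.68. In 15 of the 28 the thalamus values lay below the cortex values without overlap, against 9.27% of all genes. In ret/wt, 21 fell and none rose, with a median of -1.98. Egr3, a zinc finger factor induced by synaptic input, was at 3.32, 8.36, 8.44 and 10.4 CPM in thalamus and at 38.8, 53.8, 208 and 125 CPM in cortex (log2 -3.61 ± 0.34, adjusted p = 0.00901). Arc, which regulates AMPA receptor trafficking at spines, was at 28.6, 14.5, 26.8 and 49.8 CPM in thalamus and at 93.7, 286, 305 and 259 CPM in cortex (log2 -2.97 ± 0.47). Neither gene overlapped between regions. Egr2 fell by 3.87, Egr4 by 3.62, Nr4a2 by 2.66, Nr4a3 by 2.60, Homer1 by 2.57, Ier5 by 2.47 and Egr1 by 2.35 on the log2 scale. Npas4, a factor induced by calcium entry in neurons, was at 1.81 to 3.06 CPM in thalamus and at 6.84 to 20.7 CPM in cortex (log2 -2.11 ± 0.30). Fos and Jun, which also respond to many other stimuli, did not pass (log2 -0.69 and -0.89), and Fos was at 46.5 and 128 CPM in animal 2 against at most 31.8 CPM in all other ret/ret libraries. Without animal 2, 18 of the 28 fell. Without animals 1, 3 and 4, 9, 3 and 0 did, with medians of -1.77, -1.56 and -1.47.

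The promoters of these genes are known to hold the cyclic AMP response element (CRE) and the serum response element, whose core is the CArG box, so their windows were searched. Each window ran from 250 bases before to 50 bases after a RefSeq transcript start (GRCm38.p6), and both strands were read for TGACGTCA (the full CRE), TGACG (its core, contained in the full CRE) and the CArG box. Among the 13 called immediate early genes with a window, 10 (76.9%) held TGACG, against 33.5% of 11169 tested genes with a window. Of all 22 tested immediate early genes with a window, called or not, 16 (72.7%) held TGACG and 2 (9.09%) held TGACGTCA. None of the 13 held TGACGTCA, against 3.42% of the 11169 genes. A CArG box was in 2 of the 13, Egr2 and Dusp5 (15.4%), against 1.64%. The windows below are those of the called genes with the smallest p-values that had an entry in the RefSeq table used here (Ier5, Nr4a2 and Egr4), and that of Dusp5, added after its values were seen because it holds 2 CArG boxes. Each is written 5′ to 3′ on the gene's strand, and capitals mark TGACG or its complement CGTCA and the CArG boxes. Ier5 lies at chr1:155099587-155099886 on the minus strand, Nr4a2 at chr2:57123954-57124253 on the minus strand, Egr4 at chr6:85513540-85513839 on the minus strand and Dusp5 at chr19:53528895-53529194 on the plus strand.
Ier5: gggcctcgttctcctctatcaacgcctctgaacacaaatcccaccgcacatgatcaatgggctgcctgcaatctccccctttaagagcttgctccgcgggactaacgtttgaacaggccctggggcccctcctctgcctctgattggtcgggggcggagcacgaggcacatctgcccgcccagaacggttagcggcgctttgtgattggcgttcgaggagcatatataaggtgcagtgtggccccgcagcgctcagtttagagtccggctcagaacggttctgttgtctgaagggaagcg
Nr4a2: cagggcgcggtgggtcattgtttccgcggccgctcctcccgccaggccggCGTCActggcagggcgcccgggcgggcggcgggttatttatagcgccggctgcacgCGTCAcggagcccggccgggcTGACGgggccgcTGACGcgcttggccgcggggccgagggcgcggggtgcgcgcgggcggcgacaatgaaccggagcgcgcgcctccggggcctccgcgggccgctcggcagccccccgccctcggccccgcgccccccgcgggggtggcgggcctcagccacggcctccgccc
Egr4: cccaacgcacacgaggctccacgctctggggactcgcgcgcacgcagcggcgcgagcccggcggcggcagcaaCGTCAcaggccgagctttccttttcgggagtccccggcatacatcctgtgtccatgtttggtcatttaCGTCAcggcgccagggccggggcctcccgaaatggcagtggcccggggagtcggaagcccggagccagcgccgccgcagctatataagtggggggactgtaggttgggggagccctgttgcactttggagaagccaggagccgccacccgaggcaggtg
Dusp5: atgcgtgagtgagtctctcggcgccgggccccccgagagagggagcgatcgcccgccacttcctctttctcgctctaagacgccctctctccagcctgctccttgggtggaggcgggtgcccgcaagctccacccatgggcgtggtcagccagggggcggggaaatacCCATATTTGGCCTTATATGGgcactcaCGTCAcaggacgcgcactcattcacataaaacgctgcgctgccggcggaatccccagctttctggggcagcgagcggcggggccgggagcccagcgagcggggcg
Nr4a2 holds 4 copies of TGACG, Egr4 holds 2, Dusp5 holds 1 beside its 2 CArG boxes, and Ier5, which fell by 2.47, holds none of these motifs. A match is a string of letters and not a measured binding site. TGACG was in 22.7% of the genes that rose and 31.9% of all genes that fell, so neither set of calls as a whole was above the 33.5% of all tested genes.

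A list of synaptic signalling genes was picked for being strong in cortex, so its direction was set by that choice. Of its 29 tested genes, none rose, 15 fell and 14 did not pass, against 4.59% of all genes lower. The median was -1.64 (ret/wt: 20 lower, none higher, median -1.86). Nrgn, the calmodulin-binding protein neurogranin of dendritic spines, was at 85.8, 34.2, 65.7 and 38.3 CPM in thalamus and at 789, 198, 857 and 509 CPM in cortex (log2 -3.29 ± 0.26, adjusted p = 0.00676). Chrm1, the muscarinic receptor of forebrain neurons, was at 6.39 to 10.6 CPM in thalamus and at 206, 51.6, 217 and 182 CPM in cortex (log2 -4.02 ± 0.48). Kalrn, a spine guanine exchange factor, fell by 3.17 on the log2 scale, and the largest fall was that of Itpka, given above. The per-animal median of the list was -0.66 in animal 2 and -2.15 to -2.08 in the other 3. Without animal 2, 24 of the 29 fell, and without animals 1, 3 and 4, 4, 4 and 1 fell.

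Ion channels and receptors were called in both directions. Of 73 tested potassium channel genes, 12 fell and 4 rose, against 4.59% and 3.40% of all genes. Beside Kcnv1, Kcnh4 fell by 3.34, Kcnh1 by 2.69 and Kcnip2, an auxiliary subunit of A-type channels, by 2.67 on the log2 scale. Kcnj5 rose by log2 3.23 and Kcnh2 by log2 1.51, and Kcnj10, the potassium inward rectifier of astrocytes, was at 969, 906, 770 and 577 CPM in thalamus and at 252 to 399 CPM in cortex (log2 1.28 ± 0.14, adjusted p = 0.011). Hcn2, a pacemaker channel, was at 210 to 235 CPM in thalamus and 79 to 105 CPM in cortex (log2 1.22 ± 0.13). Among 18 ionotropic glutamate receptors, the AMPA subunits Gria2 and Gria3 fell by 1.96 and 1.71, Grik5 fell by 1.05, and the NMDA subunit Grin2d rose by log2 1.97. Among 16 GABA receptor genes, 4 fell, led by Gabra2 (log2 -1.38), and none rose. Of 13 acetylcholine receptor genes, Chrm2 and Chrna6 rose and Chrm1, Chrm3 and Chrm4 fell. Without animal 2, 26 potassium channel genes fell and 10 rose, and without animals 1, 3 or 4, 2 fell in each fit and none rose. Without animal 2, 10 GABA receptor genes fell and 1 rose, and 6 ionotropic glutamate receptor genes fell and 3 rose. None of these GABA and ionotropic glutamate receptor genes had a call without animals 1, 3 or 4, except 1 GABA receptor gene higher without animal 1. Of the acetylcholine receptor genes, 4 rose and 3 fell without animal 2. In that family, 1 fell without animal 1, 2 rose without animal 3, and none had a call without animal 4.

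Molecules of neuronal wiring gave calls in both directions. Of 67 tested protocadherins, cell surface molecules that tell a neuron's own branches from those of others, 61 had a negative and 6 a positive change, with a median of -0.52. Of these, 8 fell and 1 rose, against 4.59% and 3.40% of all genes. Pcdhga1 fell by 1.36, Pcdh20 by 1.22 and Pcdhac2 by 1.17, and Pcdh18 rose by log2 1.38. Clustered protocadherin transcripts share their 3′ exons, so their estimated counts may be split among the genes with error. Of 29 semaphorins and plexins, 3 fell and 3 rose, against 4.59% and 3.40% of all genes. Sema3a, a repellent of cortical axons (log2 -4.36), and Plxnd1 (log2 -2.41 ± 0.20, adjusted p = 0.00737) led the falls. Those that rose were Sema6a, Sema4d and Plxnb3. Efnb2, a membrane-bound ligand of Eph receptors, was at 7.64 to 14.6 CPM in thalamus and 42.9 to 91.4 CPM in cortex (log2 -2.25 ± 0.20), and its relative Efnb3 rose by log2 1.25. Of 28 Wnt pathway ligands and receptors, Rspo2, Rspo3 and Wnt10a fell and Sfrp5 rose, against the same shares of all genes. Without animal 2, 17 protocadherins fell, and 5 semaphorins and plexins fell and 6 rose. No protocadherin fell without animals 1, 3 or 4, and at most 1 semaphorin or plexin did.

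Oligodendrocyte genes were the list with the largest share of calls among those described here: 23 of 24 tested rose and none fell, against 3.40% of all genes higher, with a median of 1.56. In 22 of the 24, thalamus lay above cortex without overlap, against 8.18% of all genes. Mbp, the myelin basic protein, was at 6540, 3850, 4930 and 7370 CPM in thalamus and at 916, 1260, 1330 and 1760 CPM in cortex (log2 2.10 ± 0.25, adjusted p = 0.0135). Mobp, another protein of compact myelin, was at 3480, 1440, 2350 and 2980 CPM in thalamus and at 383 to 840 CPM in cortex (log2 2.23 ± 0.27). Hapln2, a link protein of the nodes of Ranvier, rose by log2 2.22 and Mag, which holds myelin to the axon, by log2 1.93. The transcription factors of the lineage rose too: Sox10 was at 52.9 to 72 CPM in thalamus and 19 to 23.4 CPM in cortex (log2 1.55 ± 0.16, adjusted p = 0.00969), Myrf rose by log2 1.60 and Olig1 by log2 1.49. Enpp6, a choline phosphodiesterase of newly formed oligodendrocytes, was the member that did not pass (log2 1.23, adjusted p = 0.0843). In ret/wt, 22 of 24 rose, with a median of 1.79, and none of the 24 differed between genotypes at an unadjusted p under 0.05. Without animal 2, 23 rose. Without animals 1, 3 and 4, 8, 1 and 0 rose, with medians of 1.41, 1.63 and 1.54.

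Of 11 genes of oligodendrocyte precursors, 5 rose and none fell, against 3.40% of all genes higher. Without animals 1, 2, 3 and 4, 4, 5, 0 and 0 precursor genes rose. Cspg4, the NG2 proteoglycan of precursors and pericytes, was at 20.6, 11.4, 16.2 and 18.6 CPM in thalamus and at 10.7, 5.45, 7.52 and 13.1 CPM in cortex, higher in thalamus in each animal although the groups overlapped (log2 0.91 ± 0.19, adjusted p = 0.0439). Bcas1, a gene of oligodendrocytes that begin to myelinate, rose by log2 1.89, C1ql1 by log2 1.93 and Lhfpl3 by log2 1.35. Of 22 astrocyte genes, 4 rose and none fell, against 3.40% of all genes higher. Slc6a11, the GABA transporter of astrocytes, was at 1610, 1060, 1460 and 673 CPM in thalamus and at 92.7 to 204 CPM in cortex (log2 2.85 ± 0.30, adjusted p = 0.0106). Slc6a9, the glycine transporter, rose by log2 1.64 and Slc7a10, a transporter of small neutral amino acids, by log2 1.11. None of 20 reactive astrocyte genes passed. Without animal 2, 12 astrocyte genes rose and 2 fell, and without animals 1, 3 and 4, 0, 0 and 1 rose.

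Microglia lists differed in what they showed. Of 15 homeostatic microglia genes, none rose and 1 fell, against 4.59% of all genes lower, with a median of 0.09. The receptors P2ry12 and Cx3cr1 did not pass (log2 -0.13 and -0.02), nor did Tmem119 (log2 0.31). Mertk, a receptor for engulfing dying cells that astrocytes also express, was at 25.9, 25.8, 25.8 and 21.5 CPM in thalamus and at 44.7, 37.1, 44.3 and 53.9 CPM in cortex (log2 -0.85 ± 0.17, adjusted p = 0.0421), and it fell by 1.07 in ret/wt. The summed level of the homeostatic list was 570 to 719 CPM in thalamus and 376 to 725 CPM in cortex.

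Of 28 tested genes of disease-associated microglia, a state described around plaques and dying cells, 5 rose, none fell and 23 did not pass, against 3.40% of all genes higher. Positive changes were seen in 25, and the median was 0.66. In ret/wt, 1 of 23 tested rose and 1 fell, with a median of 0.28. In edgeR's test of the difference between genotypes, 2 of the 28 had an unadjusted p under 0.05. Cst7, an inhibitor of lysosomal proteases that defines the state, was at 11.4, 6.35, 3.15 and 0.704 CPM in thalamus and at 0.508, 0.0436, 0.11 and 0.13 CPM in cortex (log2 4.71 ± 0.71, adjusted p = 0.0214). Clec7a, the receptor dectin-1, was at 6.25, 5.86, 1.94 and 1.46 CPM in thalamus and at 0.326 to 0.944 CPM in cortex (log2 2.50 ± 0.37, adjusted p = 0.0203). For both genes every thalamus value lay above every cortex value, as in 8.18% of all genes. Spp1, which codes for osteopontin, a phosphoprotein of bone that some neurons and oligodendrocytes also make, was at 70.7, 43.5, 34.6 and 403 CPM in thalamus and at 3.65 to 10.2 CPM in cortex (log2 3.46 ± 0.61, adjusted p = 0.03). Its high library was that of animal 4, and it rose in ret/wt too, by log2 2.16. Ccl6, a chemokine, rose by log2 1.62 and Fth1, the heavy chain of ferritin, by log2 0.89. Apoe did not pass (log2 0.66, adjusted p = 0.203), nor did Itgax, Lgals3, Axl and Tyrobp. In thalamus of animal 1, the library highest in meningeal and blood cell genes, Cst7, Clec7a, Ccl6, Itgax, Tyrobp and Trem2 were all at their highest, and the part of those cells was not tested. Without animal 2, 11 of the list rose, and without animals 1, 3 or 4, none did.

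Trem2 was at 26, 12.9, 13.9 and 11.4 CPM in thalamus and at 10.7, 5.02, 10.1 and 8.47 CPM in cortex. The groups did not overlap, as in 17.5% of all genes, and the log2 fold change was 0.89 ± 0.25 with an adjusted p of 0.0796, so Trem2 was not called. Over the alternatives its adjusted p ranged from 0.0149 to 0.261 and its fold change from 0.74 to 1.06. In ret/wt the log2 fold change was 0.02, and the difference between genotypes was 0.88 (unadjusted p = 0.0619 and adjusted p = 1.0 in edgeR). Of 14 genes of Trem2 signalling, none rose and 1 fell, against 4.59% of all genes lower. The gene that fell was Pik3r1, a regulatory subunit of a lipid kinase that most cells use (log2 -0.95). The adaptor Tyrobp (log2 0.87, adjusted p = 0.0902) and the kinase Syk (log2 0.20) did not pass. Without animal 2, 3 of the 14 fell, and without animals 1, 3 or 4, none did.

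Of 15 complement genes, 2 rose and none fell, against 3.40% of all genes higher. C1qc, a subunit of the recognition protein C1q made by microglia, was at 95.1, 42, 47.9 and 41 CPM in thalamus and at 54.1, 22.3, 28 and 32.6 CPM in cortex, higher in thalamus in each animal (log2 0.71 ± 0.15, adjusted p = 0.0464). Its partners C1qa and C1qb did not pass (log2 0.91 and 0.59). Cd59a, an inhibitor of the membrane attack complex, was at 17.2 to 39.8 CPM in thalamus and 3.83 to 9.73 CPM in cortex (log2 2.10 ± 0.27), and it rose as much in ret/wt (log2 2.03). C4b, which reactive glia and oligodendrocytes make, did not pass (log2 1.10, adjusted p = 0.0626). Without animal 2, 7 complement genes rose, and without animal 1, 3 and 4, 1, 0 and 0 did.

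**Figure D4:**
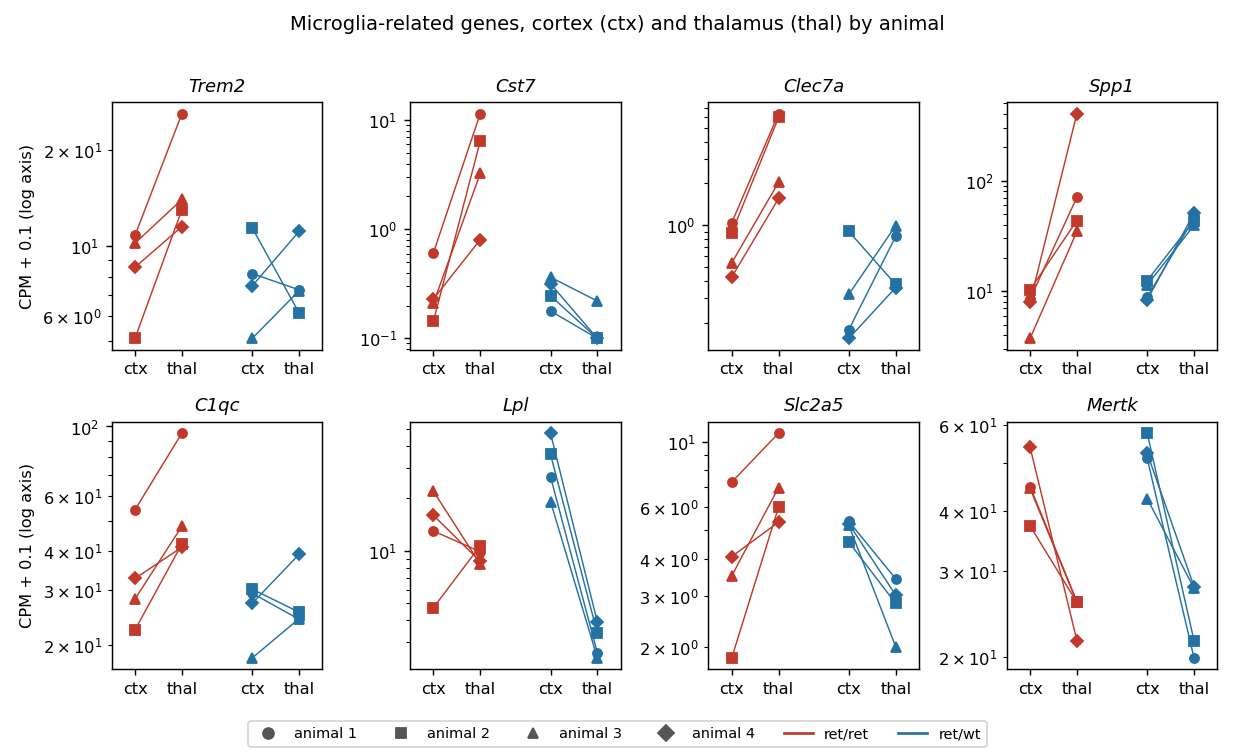
CPM plus 0.1 (log axis) of 8 microglia-related genes in cortex and thalamus of ret/ret (red) and ret/wt (blue), with a line joining the 2 libraries of each animal. All 4 ret/ret lines of Trem2, Cst7, Clec7a and C1qc rise, while Cst7 stays at or below 0.264 CPM in every ret/wt library.

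Of 13 pericyte genes, 1 passed with all 4 animals, Cspg4, which precursors share, against 3.40% of all genes higher and 4.59% lower. Pdgfrb, the receptor for PDGF-B, was at 21.9, 7.33, 8.58 and 10.2 CPM in thalamus and at 9.46 to 12.2 CPM in cortex. Its log2 fold change was 0.00 (adjusted p = 0.995), and between -0.28 and 0.21 over the alternatives. The summed level of the pericyte list was 75.8 to 287 CPM in thalamus and 64 to 173 CPM in cortex. Of 23 endothelial genes, Abcg2, an efflux transporter of the blood-brain barrier, fell (log2 -0.78 ± 0.14, adjusted p = 0.0319), at 16 to 29.3 CPM in thalamus against 31.6 to 44.1 CPM in cortex. None of 12 genes of endothelial activation, 20 of the interferon response and 11 of border-associated macrophages passed. Of 11 smooth muscle genes, 1 passed, Sncg, which neurons also express. Without animal 2, 3 pericyte genes, 2 smooth muscle, 2 interferon response and 2 endothelial genes rose, and 2 endothelial and 2 endothelial activation genes fell. In that fit, 1516 of all 14737 tested genes rose and 1825 fell. The median of the pericyte list was then 1.0, against 0.19 with all animals. None of these lists had a call without animals 1, 3 or 4, except 1 smooth muscle gene higher without animal 1.

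Genes of mineral handling were mostly not called. The share of all genes called higher was 3.40%. Of 20 tested genes of bone formation and resorption, 1 rose, Spp1. Of 14 tested genes of phosphate transport and inherited brain calcification, 1 rose: Car2, a carbonic anhydrase that oligodendrocytes and bone-resorbing osteoclasts both use, was at 256, 242, 284 and 322 CPM in thalamus and at 138 to 182 CPM in cortex (log2 0.86 ± 0.17, adjusted p = 0.0416). Its ret/wt change was the same in size (log2 0.86). Without animal 2, 2 bone genes and 3 phosphate genes rose, where 1516 of all 14737 tested genes did. Without animals 1, 3 or 4, no bone or phosphate gene rose.

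Transcripts of energy and protein production had small positive differences. All 12 tested mitochondrial genes had positive changes, with a median of 0.72 (ret/wt 0.30), but 1 passed, mt-Nd2, a subunit of complex I (log2 0.88 ± 0.19, adjusted p = 0.0445). Without animal 2, 10 of the 12 rose, as did 30 nuclear respiratory and 14 ribosomal genes, and without animals 1, 3 or 4, none of the 3 groups had a call. Of 98 tested nuclear genes of the respiratory chain, 84 had positive changes with a median of 0.30, and 4 rose: Atp5j2, Atp5e, Ndufb8 and Ndufaf2, by log2 0.62 to 0.90. Of 75 cytosolic ribosomal protein genes, 74 had positive changes with a median of 0.44, and 3 rose, among them Rps6 and Rps27. These counts of nuclear respiratory and ribosomal genes lie near the 3.40% of all genes called higher. Nuclear respiratory and ribosomal genes also had positive medians in ret/wt (0.42 and 0.38). These medians kept their sign under each scaling tried.

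**Figure D5:**
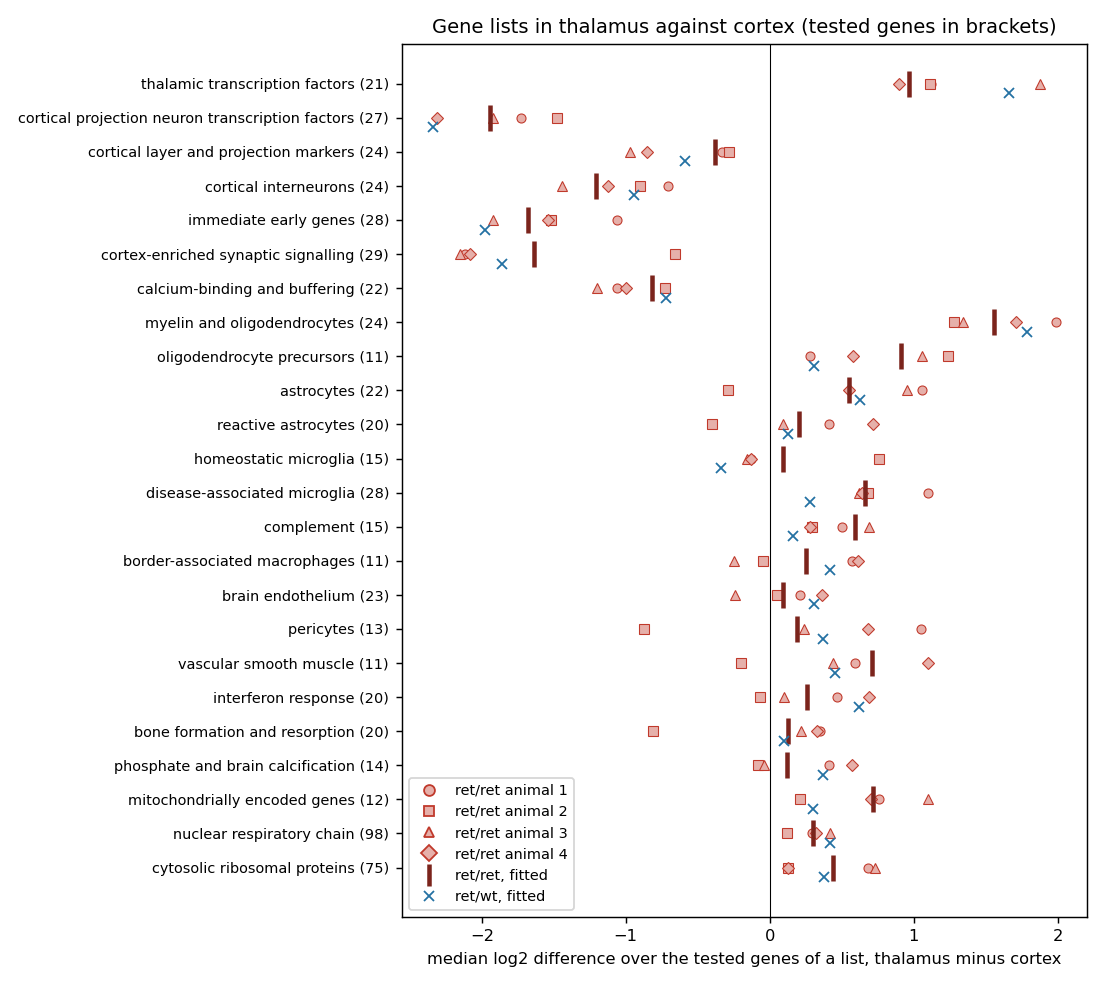
Median log2 difference between thalamus and cortex over the tested genes of 24 lists, shown per ret/ret animal (symbols), for the ret/ret fit (bars) and for the ret/wt fit (crosses). Myelin genes stand at 1.56 and immediate early genes at -1.68 in the ret/ret fit. Animal 2 departs from the others for synaptic, homeostatic microglia and pericyte genes.

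Whether the regional difference depended on genotype was tested on all 16 libraries. Of 15286 genes, none passed (0%) at an adjusted p under 0.05 in edgeR, DESeq2 called 2 and limma-voom called none. In edgeR, 243 (1.59%) had an unadjusted p under 0.05, fewer than the share of 0.05 that no difference at all would give. The p-values of this test thus ran high. The lack of calls does not show that the region effect was the same in both genotypes. The smallest adjusted p was 1.0. Lpl, Cst7, Slc2a5 and Acss1 had the smallest p-values, and they were chosen after their values were seen. Lpl, the lipoprotein lipase that lipid-handling microglia and neurons express, was at 8.29 to 10.6 CPM in ret/ret thalamus and 4.62 to 21.9 CPM in ret/ret cortex, and at 2.33 to 3.81 CPM in ret/wt thalamus and 19.1 to 47.3 CPM in ret/wt cortex. Its regional change was -0.40 in ret/ret and -3.37 in ret/wt, a difference of 2.98 ± 0.52 (unadjusted p = 0.000192). Cst7 was at or below 0.264 CPM in every ret/wt library, and its difference was 7.21 ± 1.28 (unadjusted p = 0.000239). Its ret/wt libraries held at most 2 counts in thalamus and 6 in cortex, too few for the ret/wt test. The size of the difference is therefore uncertain. Slc2a5, a fructose transporter of microglia, was higher in thalamus in all 4 ret/ret animals (log2 0.93) and lower in all 4 ret/wt animals (log2 -0.89), a difference of 1.82 (unadjusted p = 0.00159). Acss1, a mitochondrial enzyme that activates acetate, was at 43.2 to 76.1 CPM in ret/ret thalamus and 24.3 to 41.5 CPM in ret/ret cortex (log2 0.81), with a ret/wt change of -0.06 and a difference of 0.88 (unadjusted p = 0.00165). Lrrc23, a protein of motile cilia and one of the ret/ret calls with the opposite sign in ret/wt, had a difference of 3.25 (unadjusted p = 0.00341).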

How the data were processed

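Bulk RNA was sequenced from 16 libraries of 8 mice after poly(A) enrichment and stranded library preparation, per the labels. The values are estimated counts per gene deposited by the authors; kallisto 0.44.0 and GRCm38.p6 are named in the submitters' processing notes. Counts were rounded to whole numbers. Genes were filtered with filterByExpr (minimum count 10, minimum total 15), scaled by TMM and tested with edgeR 4.0.16 (quasi-likelihood, animal as a block, Benjamini-Hochberg adjustment, threshold 0.05). The ret/wt contrast was fitted alone, and the difference between genotypes on all 16 libraries. CPM used the TMM-scaled library sizes.

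The labels give an animal identity that pairs the regions. Deviations of the 2 libraries of an animal correlated at 0.259, -0.0279, 0.104 and 0.0402 in ret/ret animals 1 to 4, and the highest correlation with another animal's library was -0.00799, 0.104, 0.169 and 0.077. Alternatives covered DESeq2 1.42.0, limma 3.58.1 (voom), scaling, filters, threshold, the block and leaving out each animal. On simulated counts with changes of log2 2, the ret/ret test recovered 75.6% of 193 changed genes among 14474, and 5.19% of its calls were false. The test of the difference between genotypes recovered 50.5% of 196 changed genes, and 6.6% of its calls were false. The simulated libraries held no RNA of other brain regions and few changed genes, so these rates may not hold for the real libraries.

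The genes, 34 lists and 28 families were chosen with earlier results of these data known. Lists named for cortex or thalamus hold genes picked by region, so their direction was largely set by that choice. Named genes were the 15 largest changes per direction among called genes without overlap between regions and with a mean log2 CPM of at least 1, Trem2, and the most changed or defining members of each list. Of 601 list entries, 17 gene names had no row used and were not analysed here. Some called genes are not reported by name.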

Additional observations from a re-analysis of the deposited data

Results flagged for a closer look

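Within each region of the ret/ret animals, 409 sets of 4 values with over 3 counts in their highest library were checked for a library whose gap to the nearest other was a larger share of the range than Dixon's 95% critical value for 4 samples allows. Such a library was found in 51 sets. Chance gives about 1 in 20 only for independent, normally spread values. These values were not log-transformed, the sets share libraries, and the genes were chosen with earlier results known. The count of 51 therefore cannot be set against that rate. Each value below is in CPM.

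Cortex of animal 2 stood high in Calb1 (1220), Itpr1 (3710), Neurod1 (158), Lhx1 (42.8), Gabra6 (397), Slc32a1 (142), Dusp5 (88.1), Fos (128), Rspo3 (14.4), Ddx3y (68.7), Gbx2 (0.218) and Pou4f2 (0.174). Its list sums stood at 9710 for cerebellar genes and 440 for genes of reticular thalamus and habenula. Thalamus of animal 2 stood high in Gbx2 (22.8), Rora (627), Lef1 (101), Prox1 (78.8), Mef2c (105), Calb1 (159), Egr1 (113) and Ddx3y (65.5), and low in Slc5a7 (0.671), and its thalamic transcription factors summed to 1780.

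Thalamus of animal 1 stood high in Trem2 (26), Apoe (2630), C1qa (95.9), C1qb (106), C1qc (95.1), Ccl6 (9.89) and Itgax (8.38). Its blood cell genes summed to 121 and its genes of endothelial activation to 484. Cortex of animal 1 stood high in Sfrp5 (1.09), Axl (112), Avp (0.653), Slc6a3 (1.74) and Pou4f1 (0.29).

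Thalamus of animal 4 stood high in Slc18a2 (140), Ddc (142), Spp1 (403), Neurod6 (12.7), Gabra6 (2.97), Gm11549 (1.71) and Ovol2 (0.805), and low in Mertk (21.5), and its dopamine neuron genes summed to 1380. Cortex of animal 4 stood high in Rspo2 (40) and low in Lgals3 (0.13). Cortex of animal 3 stood high in Gm11549 (89.2) and Lamp5 (408).

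The regional change differed between genotypes by 7.21 on the log2 scale for Cst7 (unadjusted p = 0.000239) and by 1.82 for Slc2a5 (unadjusted p = 0.00159) in edgeR, and neither passed adjustment over 15286 genes. The size for Cst7 is uncertain, since its ret/wt libraries held at most 6 counts.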

How the results depend on the processing

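The number of genes called between ret/ret thalamus and cortex was 2972 with DESeq2 and 93 at an adjusted p under 0.01, and leaving out 1 animal gave 34 to 3341. In ret/wt it was 2666 with DESeq2 and 453 at an adjusted p under 0.01, and leaving out 1 animal gave 551 to 1553. For the difference between genotypes DESeq2 called 2 genes and the other settings none. Leaving out an animal gives fewer samples, and the cause of the other changes was not tested. Of 2478 values of 166 genes under the alternatives, 2030 kept their direction and side of the threshold, 374 lost the call and 42 gained it. The other 32 values changed sign. They belonged to 8 genes, none called with all 4 animals or under the alternative. Pdgfrb (log2 0.00) changed to 0.14 without the block, 0.01 with DESeq2 and with RLE factors, 0.04 with voom, 0.06 with library size alone, 0.12 with upper-quartile factors, 0.02 without mitochondrial genes and with no filter, 0.03 with a stricter filter, and leaving out 1 animal gave -0.28 to 0.21. Cx3cr1 (-0.02) changed to 0.05 with library size alone, 0.10 with upper-quartile factors, 0.00 without mitochondrial genes and with no filter, 0.01 with a stricter filter, and leaving out 1 animal gave -0.28 to 0.13. Rora (-0.04) changed to 0.34 without the block, 0.02 with library size alone, 0.08 with upper-quartile factors, and leaving out 1 animal gave -0.30 to 0.14. Lhx1 (4.80) changed to -0.27 without the block. With 1 animal left out, Cux1 (0.01) lay between -0.02 and 0.11, P2ry12 (-0.13) between -0.42 and 0.06, Slc32a1 (0.28) between -0.02 and 0.92 and Syk (0.20) between -0.23 and 0.49. Of 929 list medians, 909 moved by less than the spread between animals. Of 992 list counts, 351 moved by over 1.5 times. A floor of 3 counts, 0.11 to 0.218 CPM, limits what can be said of genes near 0 in either region.

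Without pairing by animal (no replicate block), 1398 genes were called in ret/ret, 968 of them shared with the paired test, and 1813 in ret/wt.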
